A study of Mus musculus with 4 samples.

Results

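The 10 genes described here encode proteins that make, break down and sense prostaglandins and leukotrienes, the signalling lipids made from arachidonic acid. They are Pla2g4a, Ptgs1, Ptgs2, Ptges, Hpgds, Hpgd, Alox5, Alox5ap, Ptger2 and Ptger4, taken by name from a deposited table of 54532 genes. All 10 had a mean of at least 1 CPM (normalized counts scaled to library size) over the 4 libraries, as did 12326 genes in all. Arachidonic acid is cut from membrane phospholipids by cytosolic phospholipase A2 (Pla2g4a). The cyclooxygenases Ptgs1 and Ptgs2 turn it into prostaglandin H2, from which Ptges makes prostaglandin E2 and Hpgds makes prostaglandin D2. Hpgd inactivates prostaglandins by oxidation. The lipoxygenase Alox5, with its membrane partner Alox5ap, starts leukotriene synthesis instead. Ptger2 and Ptger4 encode the EP2 and EP4 receptors, which bind prostaglandin E2 and raise cyclic AMP. In macrophages, inducible Ptgs2 and Ptges are well known targets of bacterial lipopolysaccharide (LPS), the ligand of TLR4.

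Polyadenylated RNA was sequenced from macrophages derived from bone marrow. The mice were C57BL/6, aged 6 to 8 weeks, and the culture lasted 6 days with 20% L929-conditioned medium and 10% FCS. By their titles and the series' design, the 4 groups were FBXW7f/f (titled WT) without treatment, LysM-cre FBXW7f/f (titled KO) without treatment, and each of these genotypes after 3 h of LPS. The floxed FBXW7 alleles are thus shared by all 4, and LysM-cre, a Cre gene driven from the myeloid lysozyme locus Lyz2, sets the KO title apart. Each group was 1 library, of 17610372 counts (WT untreated), 23835940 (KO untreated), 20947275 (WT LPS) and 19464937 (KO LPS). Neither the LPS dose nor the number of mice behind a library is given in the sources used here, and values below are always listed in that order of libraries.

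The labels did not agree among themselves. The genotype tags gave the floxed genotype without Cre to both untreated libraries and the Cre genotype to both LPS libraries, against the titles. Fbxw7, the gene that Cre would remove, was at 17.9, 17.2, 9.90 and 11.7 CPM, so its whole-gene level did not separate the titles, and which exons were counted is not known here. The lysozyme genes paired the libraries in another way: Lyz1 was at 2.86, 32.9, 33.1 and 2.63 CPM and Lyz2 at 15253, 8711, 9917 and 18238 CPM. KO untreated and WT LPS were therefore alike in both lysozyme genes, and WT untreated was like KO LPS. Because of this, each LPS response is given within titles and also against the untreated library of the other title, and "WT" and "KO" below mean only what a library is titled.

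The deposited positions, on the mm10 build, were the same as in GENCODE M21 for all 10 genes. The cyclooxygenase genes are Ptgs1 (ENSMUSG00000047250) at chr2:36230426-36252272 on the plus strand and Ptgs2 (ENSMUSG00000032487) at chr1:150100031-150108227 on the plus strand. Pla2g4a (ENSMUSG00000056220) lies close to Ptgs2, at chr1:149829618-149961290 on the minus strand. Ptges (ENSMUSG00000050737) is at chr2:30889471-30929863 on the minus strand and Hpgd (ENSMUSG00000031613) at chr8:56294585-56321043 on the plus strand. Each interval is the whole gene, exons, introns and UTRs included.

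Promoter windows from RefSeq (build GRCm38.p6) are printed for the 4 genes on which the results turn: Ptgs2 and Ptges, which were higher after LPS in every pairing of libraries, and Ptgs1 and Hpgd, which were called lower after LPS within the WT title. Each runs 5′ to 3′ on the gene's own strand from 250 bases before the annotated start to 25 bases after it, with motif matches in capitals. The windows are chr1:150099781-150100055 (Ptgs2, plus strand), chr2:30903273-30903547 (Ptges, minus strand), chr2:36230176-36230450 (Ptgs1, plus strand) and chr8:56294302-56294576 (Hpgd, plus strand). The RefSeq start of Ptges lies inside the deposited gene span, and not at its 5′ end, and that of Hpgd lies shortly before the deposited start.
Ptgs2: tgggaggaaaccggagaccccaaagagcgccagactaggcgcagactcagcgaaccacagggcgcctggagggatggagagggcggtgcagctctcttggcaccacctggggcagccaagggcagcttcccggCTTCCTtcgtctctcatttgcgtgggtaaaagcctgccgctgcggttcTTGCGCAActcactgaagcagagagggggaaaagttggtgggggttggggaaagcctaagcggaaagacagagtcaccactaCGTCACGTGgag
Ptges: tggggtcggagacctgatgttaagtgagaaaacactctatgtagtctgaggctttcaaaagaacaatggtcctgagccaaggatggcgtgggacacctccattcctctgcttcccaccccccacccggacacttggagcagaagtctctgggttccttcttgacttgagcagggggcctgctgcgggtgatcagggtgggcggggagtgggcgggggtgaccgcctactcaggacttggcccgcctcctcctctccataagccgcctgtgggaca
Ptgs1: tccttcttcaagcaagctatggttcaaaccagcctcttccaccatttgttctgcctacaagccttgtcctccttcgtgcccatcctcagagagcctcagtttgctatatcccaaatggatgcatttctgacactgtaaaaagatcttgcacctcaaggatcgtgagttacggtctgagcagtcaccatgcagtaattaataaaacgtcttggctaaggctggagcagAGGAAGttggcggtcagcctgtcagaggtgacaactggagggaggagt
Hpgd: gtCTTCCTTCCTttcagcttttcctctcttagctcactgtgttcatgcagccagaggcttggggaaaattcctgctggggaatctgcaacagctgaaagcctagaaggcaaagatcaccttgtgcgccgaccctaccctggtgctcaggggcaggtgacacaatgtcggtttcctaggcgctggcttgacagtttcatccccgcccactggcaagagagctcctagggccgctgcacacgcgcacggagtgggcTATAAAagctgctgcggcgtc
Matches were searched on both strands in the 300-base RefSeq windows, which reach 50 bases past the start, and 9 of the 10 genes had one. Positions count from the annotated RefSeq start as 1, with negative numbers before it. The Ptgs2 window held the C/EBP palindrome TTGCGCAA at -69 to -62, a sequence found in 0.183% of 32851 windows of this length. It also held TGACG, the core of the cyclic AMP response element, at 14 to 18 (20.8% of windows) and the E-box CACGTG at 17 to 22 (7.15% of windows), and these overlap each other. Of the 9 genes, Ptgs2 alone held each of these 3 motifs. The PU.1 core AGGAAG was in Ptgs2, Ptgs1, Hpgd, Hpgds and Pla2g4a, and in 35.4% of windows. The TATA sequence TATAAA lay at 5 to 10 in Hpgd, after the RefSeq start but before the deposited start of the gene. It also lay at -200 to -195 in 1 of the 2 windows of Pla2g4a, and in 13.6% of all windows. No capitals stand in the Ptges window, which held none of the motifs searched. The AP-1 motif TGANTCA (7.81% of windows) and the NF-kB consensus (4.51% of windows) were in the window of none of the 9 genes. A match is a description of letters, and no match says only that these letters are not in this window.

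**Figure D1:**
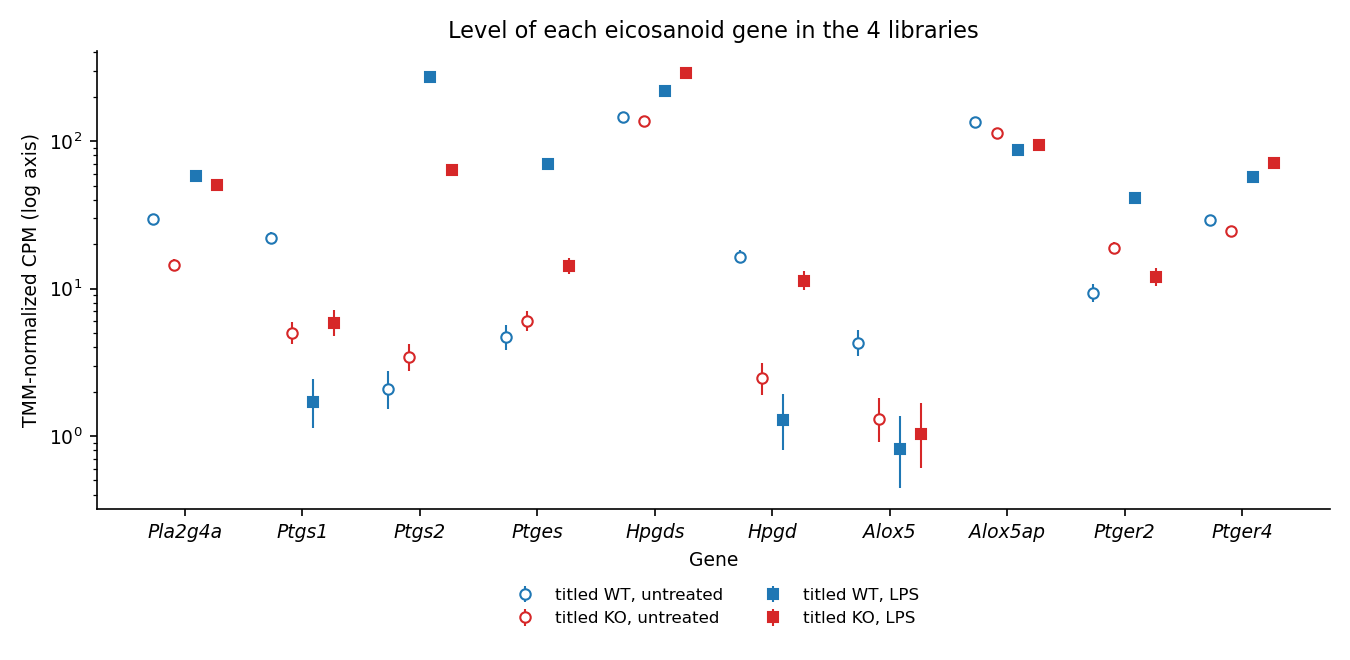
Level of each gene in the 4 libraries, as TMM-normalized CPM on a log axis. Points are single libraries and bars are exact 95% Poisson intervals of the count, which cover counting error only. Ptgs2 spans the widest range, from 2.09 to 270.2 CPM, and Alox5ap the narrowest, from 86.6 to 135 CPM.

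Compared per length of transcript, as the authors' FPKM, the leukotriene cofactor was the most abundant of the 10 transcripts in every library. Alox5ap stood at 93.4, 76.9, 61.2 and 68.3 FPKM. Its enzyme Alox5 was near the bottom throughout, at 1.03, 0.306, 0.199 and 0.260 FPKM, the lowest of the 10 in every library but WT untreated, where Ptgs2 was lower at 0.446 FPKM. Hpgds, the prostaglandin D2 synthase of immune cells, ranked next after Alox5ap in 3 libraries. It was at 22.2 FPKM in WT untreated, 20.7 in KO untreated and 46.0 in KO LPS. In WT LPS, Ptgs2 at 59.2 FPKM came between Alox5ap and Hpgds, which was at 34.2 FPKM.

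LPS was followed by a higher level of the inducible prostaglandin E2 enzymes in both titles and, within the WT title, by calls of lower Ptgs1, Hpgd and Alox5. With 1 library per group, a comparison of 2 libraries has no test, and a model over all 4 is given further on. For 2 libraries a gene was called by size: at least 2-fold on the log2 scale (prior count 2), with an exact 95% interval of the 2 counts that excludes no change. That interval holds counting error only, and not the spread between cultures. In the WT title, 3 of the 10 genes were called higher (Ptgs2, Ptges, Ptger2) and 3 lower (Ptgs1, Hpgd, Alox5), against 15.4% and 15.0% of all genes (30.4% in either direction). In the KO title 6 were called higher (Ptgs2, Ptges, Hpgd, Hpgds, Pla2g4a, Ptger4) and 0 lower, against 14.6% and 17.8% of all genes (32.4% in either direction). The median log2 ratio of the 10 genes was 0.78 in WT and 1.14 in KO, beside -0.01 and -0.07 over all genes. In such bulk cultures fewer cells of a type and less RNA per cell cannot be told apart.

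The order of the libraries was simpler than the calls. Both LPS libraries lay above both untreated ones for Ptgs2, Ptges, Hpgds, Pla2g4a and Ptger4, 5 of the 10 genes, and for 34.6% of all genes. Both lay below for Alox5 and Alox5ap, and for 38.1% of all genes. When each LPS library was set against the untreated library of the other title, WT LPS had 5 of the 10 genes called higher (Ptgs2, Ptges, Pla2g4a, Ptger2, Ptger4) and 1 lower (Ptgs1), with 28.6% of all genes called, 13.6% higher and 14.9% lower. KO LPS had 3 called higher (Ptgs2, Ptges, Ptger4) and 2 lower (Ptgs1, Alox5), with 29.8% of all genes called, 14.1% higher and 15.7% lower.

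Release of arachidonic acid comes first. Pla2g4a was at 29.6, 14.5, 58.2 and 50.6 CPM, so both LPS libraries lay above both untreated ones, and KO untreated was the lowest. The ratio of LPS to untreated was 1.97 in WT (95% counting interval 1.78 to 2.17), just short of the 2-fold limit, and 3.49 in KO (3.09 to 3.94). With DESeq2 size factors the log2 ratio in WT, 0.97, became 1.01 and was called. With library totals, which lowered the WT log2 ratios of all genes by 0.60 at the median, it was not called. Against the untreated library of the other title the ratios were 4.02 for WT LPS and 1.71 for KO LPS. The larger ratio in KO went with the lower untreated level, since the LPS levels were 1.15-fold apart.

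The 2 cyclooxygenases differed in direction within the WT title and in both pairings across titles. Within the KO title only Ptgs2 was called. Ptgs2 was at 2.09, 3.43, 270.2 and 63.4 CPM, from 46, 95, 4640 and 1036 counts. Both LPS libraries were far above both untreated ones, with WT LPS the highest. LPS was followed by a 129.5-fold higher level in WT (96.9 to 177) and an 18.5-fold higher level in KO (14.9 to 23.0). With the untreated libraries exchanged, the folds were 78.7 for WT LPS and 30.4 for KO LPS, so all 4 pairings gave a call.

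Ptgs1, the cyclooxygenase expressed without stimulation in many tissues, was at 22.2, 4.99, 1.69 and 5.87 CPM. WT untreated stood apart as the highest library and WT LPS as the lowest, with both KO libraries between them. LPS went with a 13.1-fold lower level in WT (9.03 to 19.8) and a ratio of 1.18 in KO (0.898 to 1.54), whose interval includes no change. Against the untreated library of the other title, Ptgs1 was 2.95-fold lower in WT LPS (1.97 to 4.58) and 3.78-fold lower in KO LPS (3.03 to 4.75). The value in KO thus depends on which untreated library it is set against.

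The share of Ptgs2 in the summed FPKM of both cyclooxygenases was higher in both LPS libraries. It was 7.39% in WT untreated and 36.9% in KO untreated, and 99.3% in WT LPS and 90.1% in KO LPS. In untreated cells Ptgs1 was therefore the more abundant transcript of the pair in both titles, by 12.5 times in WT and 1.71 times in KO. Within the KO title Ptgs1 itself was not lower after LPS, at 1.24 FPKM untreated and 1.55 FPKM with LPS.

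Ptges, the inducible microsomal prostaglandin E synthase that acts with Ptgs2, had the same order of libraries as Ptgs2. It was at 4.67, 6.07, 70.5 and 14.3 CPM. WT LPS stood above the rest, and KO LPS was above both untreated libraries. The folds after LPS were 15.1 in WT (12.3 to 18.6) and 2.35 in KO (1.92 to 2.88), and 11.6 and 3.05 with the untreated libraries exchanged. Ptgs2 and Ptges were the only 2 of the 10 genes called higher in all 4 pairings, as were 9.91% of all genes, and 0 were called lower in all 4 (8.26% of all genes). With counts scaled by library totals, however, the log2 ratio of Ptges in KO fell from 1.22 to 0.76, short of a call. Ptgs2 and Ptges were also the only 2 called in the same direction in both titles, as were 19.3% of all genes.

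Hpgds was at 145, 138, 219 and 288 CPM. Both LPS libraries lay above both untreated ones, with KO LPS the highest. Its ratios were 1.51 in WT (1.44 to 1.58), which was not called, and 2.09 in KO (2.00 to 2.18), which was. The call in KO was lost with library totals (log2 ratio 0.60), which also brought the WT ratio to -0.02. With the untreated libraries exchanged the ratios were 1.59 for WT LPS and 1.98 for KO LPS, neither called.

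Hpgd was the 1 gene of the 10 called in opposite directions by LPS in the 2 titles, as were 1.26% of all genes. It was at 16.5, 2.46, 1.28 and 11.3 CPM, from 363, 68, 22 and 185 counts. WT untreated and KO LPS were high, and KO untreated and WT LPS were low. LPS was followed by a 12.9-fold lower level in WT (8.36 to 20.8) and a 4.60-fold higher level in KO (3.47 to 6.17). With the untreated libraries exchanged both differences were downward and under 2-fold, at 1.92-fold lower for WT LPS and 1.45-fold lower for KO LPS.

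The leukotriene genes were lower in both LPS libraries. Alox5 was at 4.31, 1.30, 0.815 and 1.04 CPM, from 95, 36, 14 and 17 counts, so 3 of its 4 values rest on few reads. It was 5.29-fold lower after LPS in WT (3.00 to 10.03) and 1.25-fold lower in KO (0.685 to 2.38), where the interval includes no change. With the untreated libraries exchanged, Alox5 was 1.60-fold lower in WT LPS (0.840 to 3.20) and 4.14-fold lower in KO LPS (2.46 to 7.41), so the call moved to the other LPS library. Alox5ap was at 135, 113, 86.6 and 94.5 CPM, with 1487 counts or more in each library. Its differences were 1.56-fold lower in WT (1.47 to 1.67) and 1.20-fold lower in KO (1.13 to 1.28), and neither was called, although the WT value was with library totals (log2 ratio -1.25). The exchanged pairings gave 1.31-fold and 1.43-fold lower.

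The 2 prostaglandin E2 receptors differed in their order of libraries. Ptger4 (EP4) was at 29.1, 24.8, 57.5 and 71.0 CPM, with both LPS libraries above both untreated ones. Its ratio was 1.98 in WT (1.79 to 2.19), just under the limit, and 2.87 in KO (2.61 to 3.15), and 2.32 and 2.44 with the untreated libraries exchanged. The WT value was called with DESeq2 size factors (log2 ratio 1.02) but not with library totals, which lowered the WT log2 ratios of all genes by 0.60 at the median. Ptger2 (EP2) was at 9.34, 18.9, 41.2 and 12.1 CPM. WT LPS was the highest, KO untreated the next, and WT untreated and KO LPS were low. Its level after LPS was 4.41-fold higher in WT (3.77 to 5.18) and 1.57-fold lower in KO (1.33 to 1.85), the latter short of a call except with library totals (log2 ratio -1.11). The direction in KO turned with the untreated libraries exchanged: Ptger2 was then 2.18-fold higher in WT LPS (1.95 to 2.45) and 1.29-fold higher in KO LPS (1.06 to 1.58). Ptger4 made up 70.9, 50.6, 52.2 and 82.1% of the summed FPKM of the pair. Ptger4 overlaps Ttc33 on the opposite strand (477, 538, 260 and 277 counts for Ttc33), and the sources used here do not say whether counting used strand.

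**Figure D2:**
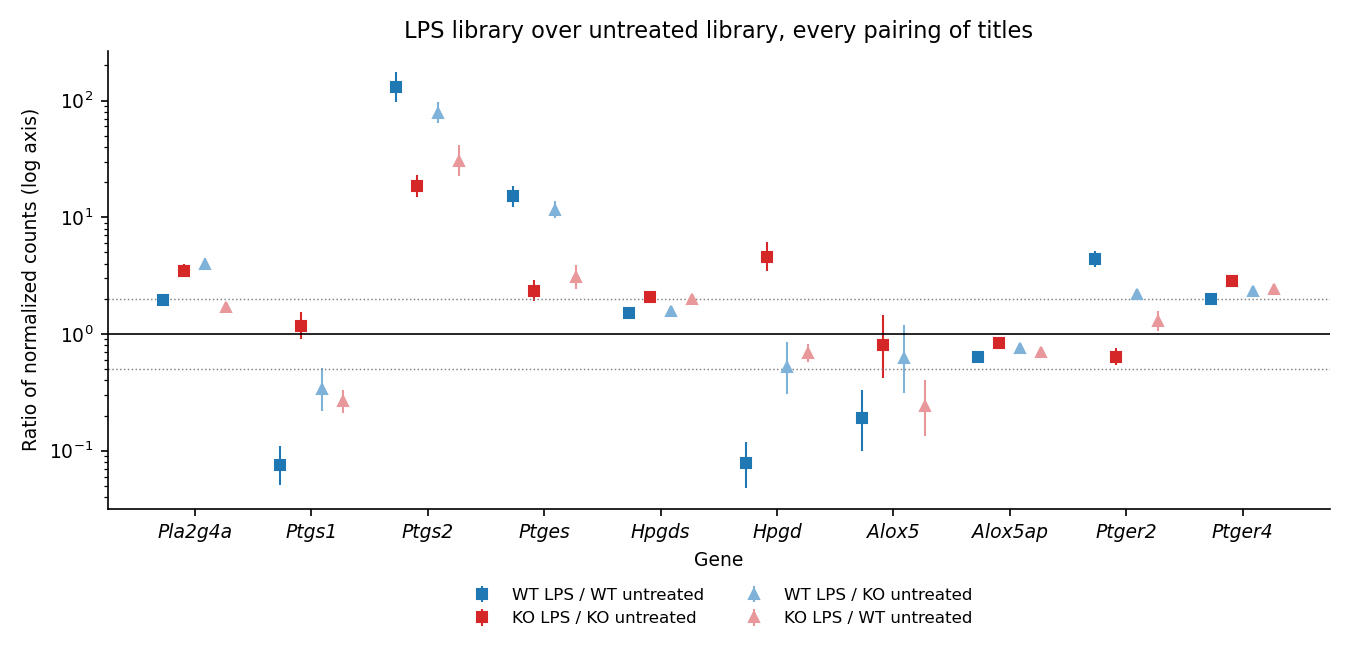
Ratio of each LPS library to each untreated library for the 10 genes, on a log axis, in the 2 pairings within a title and the 2 across titles. Bars are exact 95% binomial intervals of the 2 counts and dotted lines mark 2-fold. Ptgs2 and Ptges lie above 2-fold in all 4 pairings, and Hpgd lies above 1 only in the pairing within the KO title.

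Between titles, without LPS, the KO library had less of 4 genes and more of 1. Called lower were Hpgd (6.70-fold, 5.16 to 8.81), Ptgs1 (4.44-fold, 3.67 to 5.41), Alox5 (3.31-fold, 2.23 to 5.00) and Pla2g4a (2.04-fold, 1.80 to 2.32). Called higher was Ptger2 (2.02-fold, 1.72 to 2.39), at the edge of the rule: its log2 ratio of 1.01 was 0.98 with DESeq2 size factors and 0.90 with library totals, and both lost the call. These are 5 of 10 genes, beside 5.18% of all genes in either direction, 2.03% lower and 3.16% higher. The 10 genes were chosen with earlier results of these data known, so no such share here or elsewhere tests them as a set. Ptgs2 was 1.65-fold higher in KO (1.15 to 2.40) and Ptges 1.30-fold higher (1.01 to 1.68), neither called. The median log2 ratio of the 10 genes was -0.24, beside 0.03 over all genes.

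After LPS the differences between titles were again in 5 of 10 genes, beside 8.23% of all genes, and most had turned round. Lower in KO LPS were Ptges (4.94-fold, 4.29 to 5.71), Ptgs2 (4.26-fold, 3.98 to 4.56) and Ptger2 (3.42-fold, 2.92 to 4.03), and 4.81% of all genes were called lower. Higher were Hpgd (8.84-fold, 5.66 to 14.4) and Ptgs1 (3.48-fold, 2.28 to 5.47), and 3.42% of all genes were called higher. Alox5 gave a ratio of 1.28 (0.592 to 2.80), which is not distinguishable from no change at 14 and 17 counts. The median log2 ratio was 0.21, beside -0.02 over all genes.

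The sign of the difference between titles was opposite without and with LPS for 9 of the 10 genes, all but Pla2g4a. This was also the case for 69.2% of all genes, so the count is no result about these 10. Calls in opposite directions were made for Ptgs1, Hpgd and Ptger2, and for 2.99% of all genes. That of Ptger2 rests on its call without LPS, which was lost under both other scalings. In the same 3 genes the level did not overlap between 2 pairs of libraries that neither title nor treatment defines. Ptger2 was higher in KO untreated and WT LPS than in the other 2 libraries, as were 12.0% of all genes, and Ptgs1 and Hpgd were lower in that pair, as were 9.80%. Lyz1 is high and Lyz2 low in the same pair. The tags, the titles and the lysozyme genes thus divide the 4 libraries in 3 ways, and with 1 library per group a difference between genotypes and a difference between these cultures cannot be told apart.

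**Figure D3:**
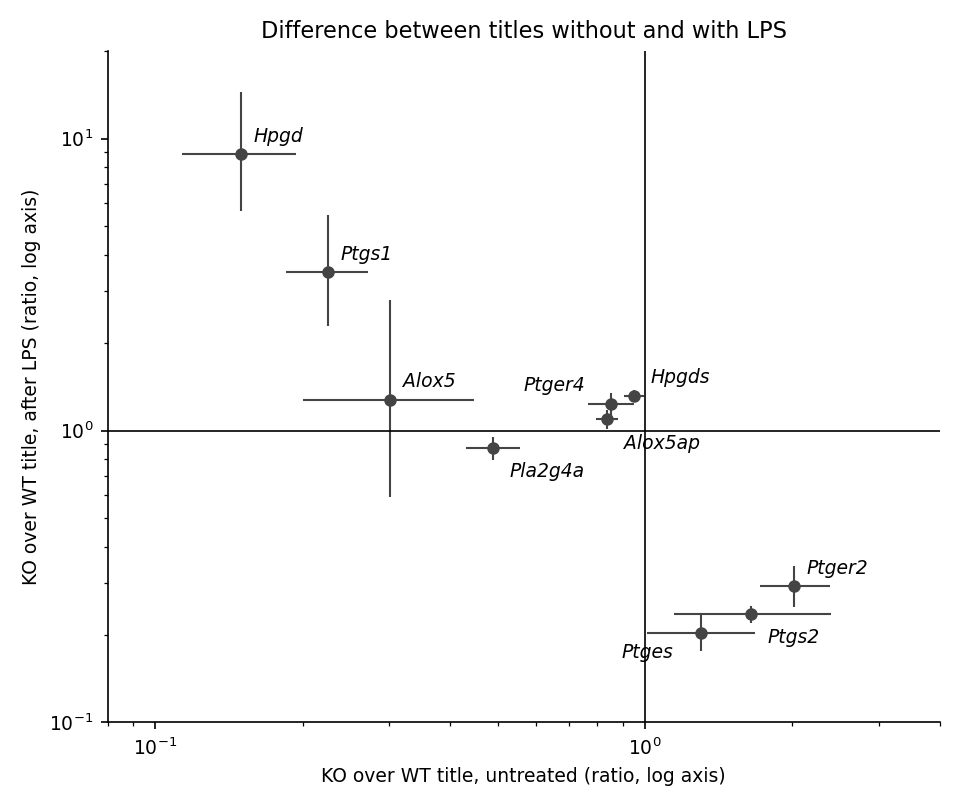
Ratio of KO to WT without LPS (horizontal) and after LPS (vertical), both on log axes, for the 10 genes. Bars are exact 95% binomial intervals of the counts. Hpgd and Ptgs1 lie at the upper left (6.70-fold and 4.44-fold lower, then 8.84-fold and 3.48-fold higher), and Ptger2, Ptges and Ptgs2 lie at the lower right.

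The response to LPS itself was then compared between titles, as the log2 ratio in KO minus that in WT. This uses all 4 libraries and is the same quantity as the KO to WT difference after LPS minus that before, so it is not further evidence. It was at least 1 in size, with a Poisson interval that excludes 0, for 6 of the 10 genes and for 18.1% of all genes. The response in KO was lower for Ptgs2 (-2.78), Ptger2 (-2.77) and Ptges (-2.67), and 10.3% of all genes were called this way. It was higher for Hpgd (5.75), Ptgs1 (3.87) and Alox5 (1.97), and 7.76% of all genes were called this way. The median was 0.50, beside -0.06 over all genes.

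An additive model of title and treatment over all 4 libraries is the one fit with a measure of spread, on 1 residual degree of freedom. The spread of each gene is drawn in edgeR towards that of all genes, so it is not the gene's own alone. In edgeR's quasi-likelihood test with Benjamini-Hochberg adjustment over 13989 genes, 3 of the 10 genes rose with LPS and 0 fell, beside 9.35% and 5.14% of all genes (14.5% in either direction). They were Ptgs2 (log2 change 5.60 ± 0.79 SE, adjusted p = 0.0162), Ptger4 (1.29 ± 0.24, adjusted p = 0.0304) and Pla2g4a (1.42 ± 0.28, adjusted p = 0.0366), each with both LPS libraries above both untreated ones. Scaled by library totals, which lower the log2 ratios of all genes by 0.60 (WT) and 0.46 (KO) at the median, Pla2g4a and Ptger4 no longer passed (edgeR adjusted p = 0.0912 and 0.0902), while Alox5ap fell (-0.99, edgeR adjusted p = 0.0458). Without the filter on low counts Ptgs1 fell as well (-1.68, edgeR adjusted p = 0.0180), and Ptges and Hpgds rose. The standard error of Ptgs1 was then 0.53, beside 1.10 with the filter, so these calls depend on which genes the spread is drawn from. Ptges had a large change that did not pass in edgeR (2.61 ± 0.71, adjusted p = 0.0730), but it passed in DESeq2 (adjusted p = 2.49e-05) and limma-voom (adjusted p = 0.0406). Hpgds was at 0.86 ± 0.25 (edgeR adjusted p = 0.0856). For Hpgd, whose responses in the titles were opposite, the edgeR estimate was -0.60 ± 1.83 (adjusted p = 0.843). Ptger2, at 0.79 ± 0.72, and Ptgs1, at -1.65 ± 1.10, likewise had a standard error near the size of the estimate (edgeR adjusted p = 0.484 and 0.344). Without the title term, an alternative chosen after the data were seen, 5 of the 10 genes rose, Ptges and Hpgds being added, beside 32.1% of all genes called in either direction, 16.7% higher and 15.3% lower.

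No gene of the 10 passed for the title term, nor did any of the 13989 genes in edgeR (0%). This term averages the title differences without and with LPS, opposite in sign for 9 of the 10 genes and 69.2% of all genes. Such differences cancel in the estimate and widen its standard error, as for Hpgd at 0.06 ± 1.81. The fit therefore cannot show that the titles were alike. At an unadjusted p under 0.05, edgeR had 39 genes, none of them among the 10, and DESeq2 called 0 genes with 30 at that unadjusted level. In limma-voom the counts were 0 and 62, with 1 of the 10 genes among the latter. The smallest edgeR value among the 10 was that of Pla2g4a, at -0.62 ± 0.28 (unadjusted p = 0.0769, adjusted p = 1).

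The authors' deposited table holds their own comparisons of the same libraries. Adjusted p-values under 0.05 in the authors' deposited table were given to 6 of the 10 genes for LPS in WT (18.2% of genes with a value), 5 for LPS in KO (19.2%), 2 for KO against WT without LPS (0.823%) and 5 after LPS (1.59%). Without LPS the 2 were Hpgd (log2 -2.74, adjusted p = 4.17e-06) and Ptgs1 (log2 -2.15, adjusted p = 0.000574) in the authors' deposited table. Pla2g4a, Alox5 and Ptger2, which the size rule called in that comparison, had adjusted p-values of 0.493, 0.0694 and 0.545 in the authors' deposited table. The sources used here do not name the authors' test. Each of these comparisons set 1 library against 1 library, so the adjusted p-values can hold no spread between replicate cultures.

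The genes whose level over the 4 libraries was most like each of the 10 were taken by the smallest Euclidean distance between centred log2 CPM profiles, among 9227 protein-coding genes with a mean of at least 5 CPM. Nearest to Ptgs2 were Edn1 (distance 0.715), Il1b (1.07) and Gem (1.07), of which Il1b, the interleukin 1 beta gene, was at 4.04, 5.13, 941 and 215 CPM. Nearest to Ptges was Ptch1 (0.408), the Hedgehog receptor, at 6.94, 7.45, 74.0 and 21.0 CPM, followed by Tnc and Lcn2. Ptgs1 was nearest to Asb2 (0.418), Anln (0.421) and Cdc20 (0.520), the last 2 being genes of cell division. Hpgd had no close neighbour: Adam23 was at a distance of 0.999, before Coro2b and Hmmr, a mitosis gene. Ptger2 was nearest to Ly75 (0.148), which was at 2.40, 5.13, 10.5 and 3.49 CPM, and then to Zfp263 and Agrn. Alox5 was nearest to Slc46a3 (0.415), Ckap2 and Slc8a1, and Pla2g4a to Rffl (0.273), Dock10 and Msr1. Distances of 0.0404 to 0.0462 separated Hpgds from Sf3b1, Alox5ap from Trim33 and Ptger4 from Usp47. Likeness over 4 libraries is a description and says nothing of shared control.

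Of 71 other genes of the pathway, in 6 lists, those for release and reacylation of arachidonic acid were called in both directions. In that list 21 of 25 genes were measured, with 4 higher and 5 lower after LPS in WT and 5 higher and 4 lower in KO, beside 15.4% and 15.0% of all genes in WT and 14.6% and 17.8% in KO. Their median log2 ratios were 0.19 and -0.22. In edgeR's additive model 5 of 22 genes rose and 0 fell, beside 9.35% and 5.14% of all genes. These were Acsl1 (2.08 ± 0.35, adjusted p = 0.0237), the long-chain acyl-CoA synthetase, with 44.4, 45.9, 273 and 126 CPM, its relatives Acsl4 and Acsl5, the phospholipase Pla2g16 and the monoglyceride lipase Mgll, whose edgeR adjusted p ran from 0.0213 to 0.0489. Acsl4, which prefers arachidonic acid, was at 99.8, 96.6, 225 and 173 CPM. Called lower in both titles were Dagla, a diacylglycerol lipase, by 2.98 and 11.8-fold, and Acsl3, by 2.41 and 2.35-fold.

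For the remaining lists the shares of all genes called are those just given. Among 6 measured of 8 other prostanoid synthases, Ptges3, a cochaperone also described as a prostaglandin E synthase, was called higher in KO (2.64-fold, at 49.3, 44.9, 62.8 and 119 CPM) and 0 genes were called in WT. Only 4 of 12 leukotriene enzymes and other lipoxygenases were measured. In each title 2 of them were called lower, beside 15.0% of all genes in WT and 17.8% in KO. They were not the same 2 genes in both titles, and all had means under 5 CPM. Leukotriene C4 synthase (Ltc4s) and the lipoxygenases Alox12 and Alox15 had means under 1 CPM. Of 9 measured breakdown and transport genes, 2 were lower in WT, Cbr3 (2.58-fold) and the epoxide hydrolase Ephx1 (4.16-fold), and 1 in KO, Cyp4f13 (2.02-fold). Ephx1 was 2.83-fold higher in KO than in WT after LPS, at 20.6, 11.9, 4.95 and 14.0 CPM. In edgeR's additive model 0 genes of these 3 lists passed.

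Of 5 measured receptors for leukotrienes and other lipid mediators, 3 were called higher in WT and 1 in KO, beside 15.4% and 14.6% of all genes, with medians of 1.56 and 0.48. Fpr2, a receptor for formyl peptides and lipoxin A4, was at 22.1, 21.6, 189 and 201 CPM and rose in the edgeR additive model (3.19 ± 0.23, adjusted p = 0.00520). The platelet-activating factor receptor Ptafr was 2.96-fold and the leukotriene receptor Cysltr2 3.24-fold higher in WT. Among 3 measured of 7 other prostanoid receptors, the prostacyclin receptor Ptgir was 2.65-fold lower in both titles, at 11.0, 9.91, 4.13 and 3.73 CPM (edgeR adjusted p = 0.0594).

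**Figure D4:**
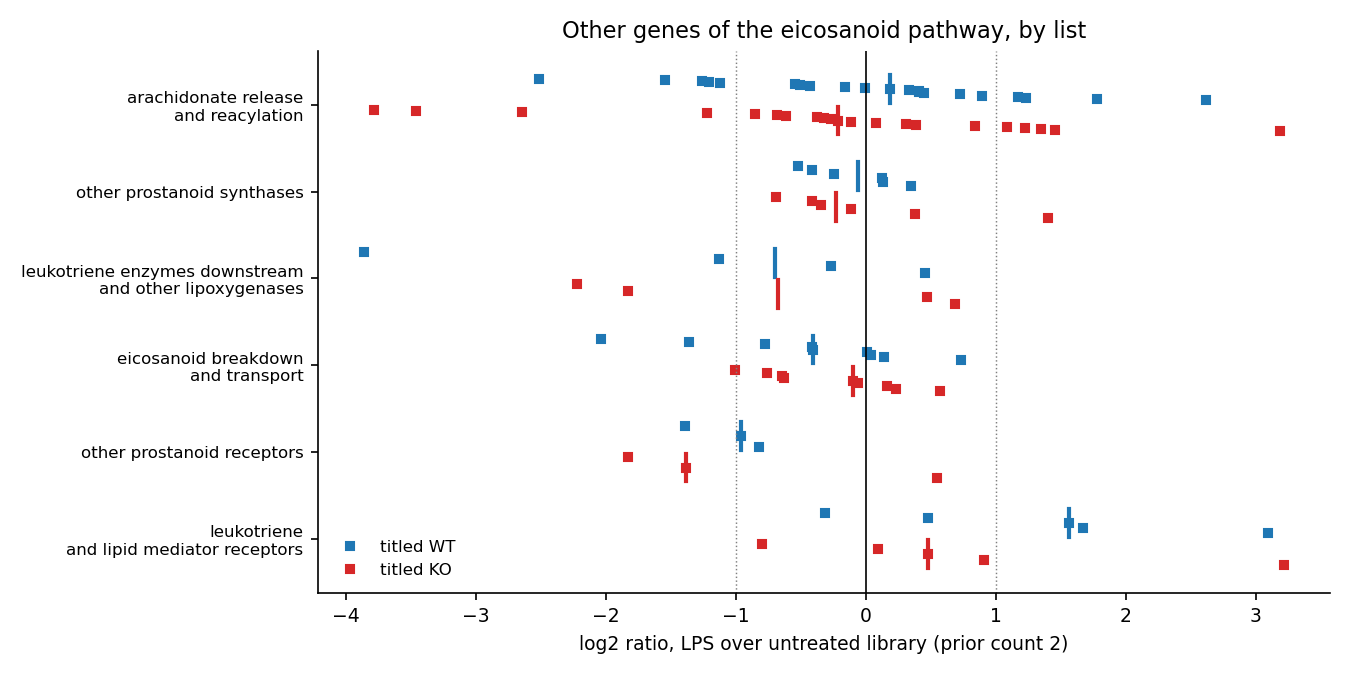
The log2 ratio of LPS to untreated (prior count 2) for each measured gene of the 6 other lists of the pathway, with the 2 titles in different colours. Each point is 1 gene, short vertical bars are list medians and dotted lines mark 2-fold. The lists for release and reacylation spread to both sides of 0, and Fpr2 is the highest of the lipid mediator receptors.

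Several cell types of marrow express eicosanoid genes, so their markers were summed in each library. The macrophage label held: all 8 macrophage markers were above 1 CPM, with sums from 15549 to 26890 CPM. Lyz2, which paired the libraries above, was the largest part of each sum, at 15253, 8711, 9917 and 18238 CPM. Neutrophil markers summed to 8.66, 31.7, 29.2 and 6.91 CPM, mostly Mmp8, with Retnlg at 0. Mmp8 was at 6.58, 29.4, 19.0 and 3.92 CPM. S100a8, the other neutrophil marker with a mean of at least 1 CPM, was at 1.95, 1.95, 9.72 and 2.75 CPM. Basophil and eosinophil markers summed to 0.952, 5.64, 3.61 and 0.306 CPM, mostly Prss34, with Epx and Ear1 at 0. Both sums were high in KO untreated and WT LPS, the pair in which Ptger2 was high and Ptgs1 and Hpgd were low. The neutrophil sum was so through Mmp8, as S100a8 was high in WT LPS only. The part of these cells in the results for that pair was not tested. Among the endothelial markers, Kdr was high in the same pair, at 15.1, 56.3, 53.0 and 16.2 CPM, while Pecam1, which macrophages also express, was at 56.7, 41.4, 16.5 and 43.1 CPM. Sums for megakaryocytes and platelets, which express Ptgs1 strongly, were 109, 83.5, 61.1 and 128 CPM, nearly all Pf4, with Gp1bb at 0. Gp9, at 0.816, 0.217, 0.116 and 1.10 CPM, had the same order of libraries as Pf4. Treml1, at 1.13, 2.10, 0.408 and 0 CPM, and Itga2b, at 1.04, 1.74, 1.16 and 0.857 CPM, did not. Whether such cells bear on the level of Ptgs1 was not tested. Mast cell markers, whose cells also express Hpgds, summed to 0.771, 4.01, 20.1 and 20.4 CPM, with Mcpt4 and Tpsb2 at 0. Only in the LPS libraries was the sum mostly Hdc, which was at 0.317, 0.832, 15.4 and 16.8 CPM. Kit was at 0, 1.30, 2.74 and 2.81 CPM and Cpa3 at 0.136, 1.23, 1.16 and 0.734 CPM. The part of such cells in the level of Hpgds was not tested. Sums ran from 1.86 to 5.87 CPM for fibroblasts, 63.6 to 100.2 for endothelial cells, 0.363 to 6.06 for T cells and 1.81 to 13.2 for dendritic cells, and reached 0.325 for B cells. Lck, at 0.0454, 0.398, 3.09 and 6.00 CPM, was the 1 T cell marker with a mean of at least 1 CPM. Xcr1, with a mean of 5.76 CPM, was the 1 such dendritic cell marker.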

How the data were processed

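RNA was sequenced from 4 macrophage libraries, 1 per group, grouped by title. The submitters' processing notes name HISAT2 2.0.5 and the mm10 build. Per the file headers, the deposited table held a read count per gene and library. It also held the authors' FPKM, per the file headers. For the authors' 4 comparisons, log2 folds and adjusted p-values were deposited too, per the file headers. The sources used here do not give the program that counted reads, its use of strand or the FPKM scaling. A further 8 columns of values per sample stayed unused.

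Counts were scaled by edgeR's TMM factors (1.25, 1.16, 0.820 and 0.840 for WT untreated, KO untreated, WT LPS and KO LPS). A level of 3 counts, taken as the floor (about the 1-sided 95% upper limit for a count of 0), was 0.136, 0.108, 0.175 and 0.184 CPM. Mitochondrial genes took 1.23 to 1.52% of counts. Comparisons of 2 libraries used the size rule given above on genes with a mean of at least 1 CPM, with exact 95% binomial intervals, and the difference of responses a 95% Poisson interval by the delta method. Intervals and floors cover counting error only. Folds in the text leave out the prior count. The additive model used edgeR 4.0.16 (filterByExpr, TMM, quasi-likelihood F test, Benjamini-Hochberg adjusted p under 0.05). The ± beside its estimates is the standard error implied by the F statistic. The p-values rest on the departure of 4 libraries from additivity, with each gene's spread drawn towards that of all genes. They hold no spread between replicates. DESeq2 1.42.0 and limma 3.58.1 (voom) refitted the additive model, in R 4.3.3, and scripts were tested on simulated data. Figures were drawn with matplotlib 3.10.9, and intervals came from SciPy 1.17.1 in Python 3.11.15. Alternatives were other scaling, prior counts, filters and thresholds, log2(FPKM + 1), and the untreated library of the other title.

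The 10 genes and the gene lists were chosen with earlier results of these data known. Of the other pathway genes, those were named that passed the size rule in any comparison with a mean of at least 5 CPM, up to 6 per list, or passed the additive model. For likeness, the 3 nearest genes were named, and Fbxw7, Lyz2 and Lyz1 were named to check the labels.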

Additional observations from a re-analysis of the deposited data

Results flagged for a closer look

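The log2 response to LPS was upward in one title and downward in the other for 2 of the 10 genes, with counting intervals that did not include 0 in either title. For Hpgd the response in KO minus that in WT was 5.75, from 12.9-fold lower in WT and 4.60-fold higher in KO. For Ptger2 it was -2.77, from 4.41-fold higher in WT and 1.57-fold lower in KO. Against the untreated library of the other title, the directions no longer differed: Hpgd was 1.92-fold lower in WT LPS and 1.45-fold lower in KO LPS, and Ptger2 was 2.18-fold and 1.29-fold higher. Each title had 1 library per treatment, so these differences were not tested against the spread between cultures.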

How the results depend on the processing

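Of 498 values for single genes among the 10 recomputed under the alternatives, 449 kept their direction and side of the threshold. With the untreated library of the other title, the log2 LPS ratio in KO changed sign to -1.90 for Ptgs1, -0.54 for Hpgd and 0.36 for Ptger2. Library totals changed the sign for Hpgds in WT (-0.02) and Ptgs1 in KO (-0.23), neither called, and brought the title effect of Ptger4 from 0.03 to -6.57e-05. The title effect of Hpgd, 0.06 in edgeR, was -0.54 in limma-voom. The number of the 10 genes called stayed within 1.5 times its value except in 4 cases. It was 10 for LPS in WT at a 1.5-fold limit, 2 for KO against WT without LPS on log2(FPKM + 1), and, in the additive LPS effect, 6 without a filter and 5 without the title term.

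Over all genes the main counts were 3747 (LPS in WT), 3992 (LPS in KO), 639 (KO against WT untreated), 1014 (after LPS), 2229 (difference of responses), 2027 (additive LPS effect) and 0 (additive title effect). At a 1.5-fold limit the first 5 became 5975, 6508, 1719, 2321 and 4117, and on log2(FPKM + 1) they became 2299, 2328, 279, 433 and 1222. At a mean of at least 5 CPM, the third to the fifth became 384, 549 and 1416, from fewer genes tested, and without a filter the third became 1157. The additive LPS effect gave 4049 genes with library totals, 3797 without a filter and 4485 without the title term, and the title effect gave 2 without a filter. Library totals also moved the share of higher calls, from 50.7 to 22.2% for LPS in WT, from 45.0 to 22.6% for LPS in KO, from 60.9 to 48.4% for KO against WT untreated, from 42.9 to 53.5% for the difference of responses and from 64.5 to 22.6% for the additive LPS effect. Apart from those built on fewer or more genes, the cause of these changes was not tested.

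No paired analysis was possible because each group held 1 library, so that no 2 groups share 2 replicate numbers. The title term of the additive model does compare LPS within titles. With 1 library per group there was no replicate to leave out. Alox5, with 14 to 36 counts in 3 libraries, is the gene that depth limits most.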
